A study of Caenorhabditis elegans with 2 samples.

Results

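The col genes of the nematode Caenorhabditis elegans are a large family of collagen genes, most of which encode collagens of the cuticle. They were taken as all nuclear protein-coding genes of the WBcel235 annotation whose symbol is col- followed by a number, which gave 156 of 19973 genes. The measurement was chromatin immunoprecipitation followed by sequencing (ChIP-seq), which recovers the DNA bound by a chosen protein, here XBP-1 fused at its C-terminus to GFP and FLAG. Whole hermaphrodite larvae of the first stage (L1) of strain OP506, genotype unc-119(tm4063) III; wgIs506, were harvested 6 h after being synchronized by bleaching and starvation. The 2 biological replicates form 1 group, with no other genotype, stage or treatment to compare. The description gives an antibody against GFP, while another label field names xbp-1. The tagged protein comes from an integrated transgene in every animal, the promoter that drives it is not given in the sources used here, and whole larvae give no view of single tissues, so binding in the epidermis cannot be told apart from binding elsewhere.

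Cuticle collagens are short secreted proteins built around Gly-X-Y repeats, in which glycine recurs at a fixed spacing. The epidermis folds and hydroxylates them in the endoplasmic reticulum (ER), exports them and cross-links them into a new cuticle at every moult, so they are among the most abundant cargo of its secretory pathway. XBP-1 is a bZIP transcription factor made when the ER-resident kinase and nuclease IRE-1 splices its mRNA during the unfolded protein response, and it is best known as an activator of ER chaperone and secretion genes.

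The coding sequences bore out the symbols for nearly every member. The median protein had 304 residues (range 154 to 740, the longest from col-163) and 51 Gly-X-Y triplets in runs of at least 3, and 143 proteins had 250 to 400 residues. At least 20 triplets were found in 155 of the 156 genes. The exception was col-17, with 0 triplets in the Ensembl reading frame of 277 residues, whereas the RefSeq model of the same gene has 283 residues and 51 triplets in 3 runs. By symbol the set also takes in col-99, which is known to encode a membrane-spanning collagen rather than a cuticle component.

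The deposited lists give 3641 thresholded peaks, kept by the authors with the irreproducible discovery rate (IDR), which draws on how alike regions rank in replicates. The relaxed lists, which were the input to that step and hold peaks together with background, give 26088 regions for the pooled replicates, 30000 for replicate 1 and 28535 for replicate 2. The thresholded peaks were exactly the 3641 pooled regions with the highest signal value, so a rank below refers to both lists. A single thresholded peak thus need not have ranked alike in both replicates. Signal is the value the authors' caller gave each region, on a scale that is not stated, and is compared here only within a list. The lists carry no read totals, so depth is unknown.

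Few col genes had a thresholded peak at their promoter. A summit fell in the promoter window, which reaches from 1000 bp before a transcript start to 200 bp after it, in 7 of 156 col genes, or 4.49% (95% Wilson interval 2.19% to 8.97%), while the share of all genes tested was 15.5% (3092 genes). In the pooled relaxed list 41 col genes, or 26.3% (20% to 33.7%), held a summit, beside 40.9% of all genes. Replicate 1 gave 46 col genes, or 29.5% (22.9% to 37.1%), beside 43.3% of all genes. Replicate 2 gave 45 col genes, or 28.8% (22.3% to 36.4%), beside 43.5% of all genes. The col share was thus lower in all 4 lists. As a ratio the gap was wider in the thresholded list, where the share of all genes was 3.45 times that of col genes, than in the pooled relaxed list, where it was 1.56 times. In percentage points it was narrower, at 10.99 in the thresholded list and 14.6 in the pooled one. Of the col genes with a pooled relaxed summit 17.1% (7 of 41) also had a thresholded one, beside 37.9% (3092 of 8168) of all genes. Intervals cover counting error over genes only, neighbouring genes can share a summit, and the shares are given as a description with no test of the difference.

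**Figure D1:**
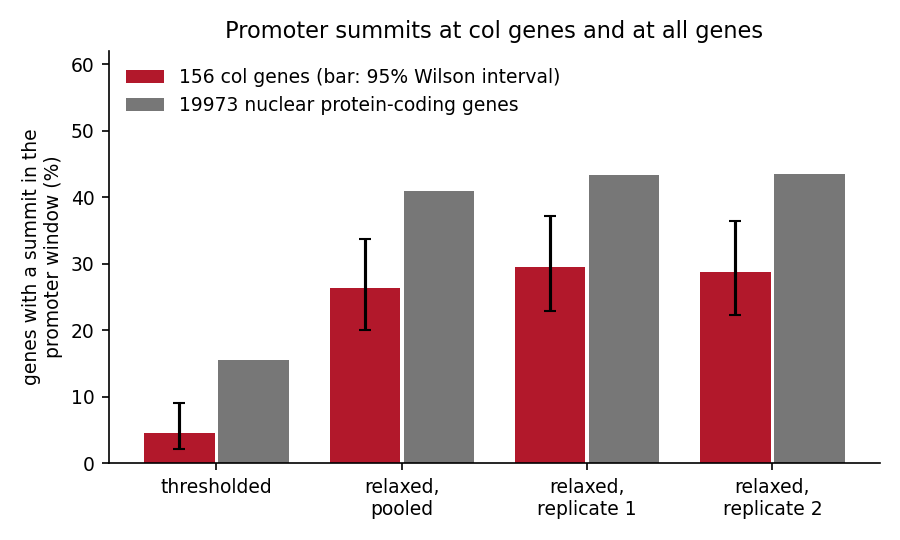
Percentage of genes with a summit in the promoter window (y axis) in each of the 4 peak lists (x axis), for the 156 col genes (red, with 95% Wilson intervals) and all 19973 nuclear protein-coding genes (grey). The col bar is the lower one in every list, from 4.49% against 15.5% in the thresholded list to 28.8% against 43.5% in replicate 2.

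The 7 exceptions were col-38, col-71, col-2, col-63, col-8, col-10 and col-185. Each had a separate peak, and all 7 peaks overlapped a region in both replicates. Their median signal was 208, beside 163 for the 2395 thresholded peaks in any promoter window. They spanned the list from rank 190 to rank 3024, and the median distance of the summit from the col start was 423 bp. Another gene had the nearest start at 4 of the 7 peaks, so that the col gene was nearest in 3 of 7 (42.9%), beside 72.8% (2251 of 3092) of all genes with a thresholded summit.

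**Figure D2:**
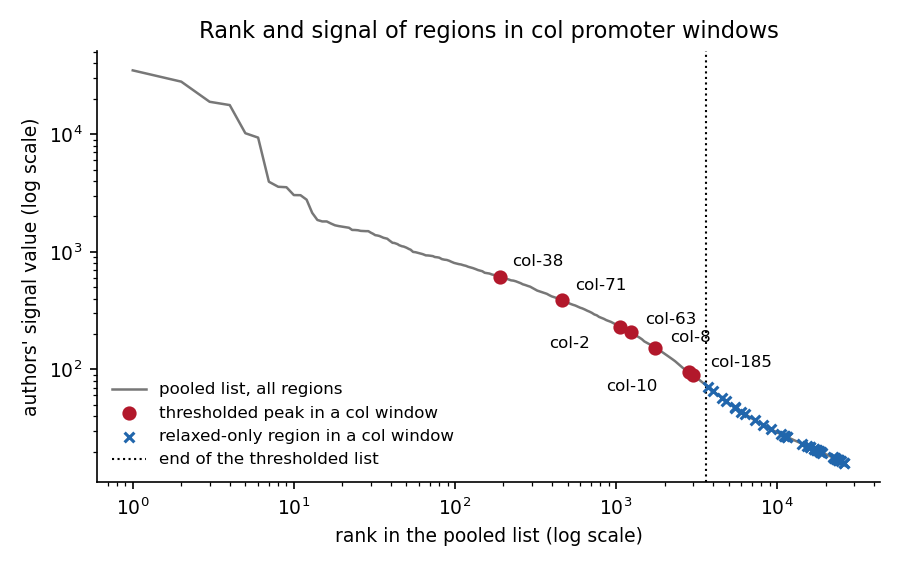
The authors' signal value (y axis, log scale) against rank in the pooled list (x axis, log scale), for all regions (grey line), the 7 thresholded peaks in col windows (red circles) and the relaxed-only regions in col windows (blue crosses). The red points run from col-38 at rank 190 to col-185 at rank 3024, and the dotted line marks the end of the thresholded list at rank 3641.

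The 4 peaks that col genes shared with another gene are shown first, since they lay between divergent or overlapping promoters and the col gene was the farther one each time. The sequences below are the 50 bases on either side of each summit, read 5′ to 3′ along the col gene (the minus strand of ce11) from the RefSeq WBcel235 sequence, cut short at col-8 where annotated UTR begins.
col-38: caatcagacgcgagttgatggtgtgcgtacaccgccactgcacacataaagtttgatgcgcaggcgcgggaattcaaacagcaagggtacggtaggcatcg
col-71: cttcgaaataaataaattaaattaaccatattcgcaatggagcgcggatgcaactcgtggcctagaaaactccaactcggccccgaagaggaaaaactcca
col-2: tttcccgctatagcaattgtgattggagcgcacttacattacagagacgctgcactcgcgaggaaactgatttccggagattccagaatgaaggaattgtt
col-8: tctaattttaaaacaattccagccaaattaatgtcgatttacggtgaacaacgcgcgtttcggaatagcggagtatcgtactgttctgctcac
None of these 4 windows held the XBP-1-type core TGACGTG, or any other of the 8 words searched, on either strand.

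The strongest of them was the peak of col-38 (WBGene00000615) at rank 190, chrII:8569408-8569652, with signal 614. It stood at rank 245 with signal 286 in replicate 1 and at rank 167 with signal 316 in replicate 2, with summits 8 bp apart. Its summit lay 423 bp upstream of col-38 and 416 bp upstream of rpl-5, which encodes a protein of the large ribosomal subunit and runs the other way. The summit also fell inside the annotated non-coding RNA genes F54C9.16 and F54C9.17. The peak of col-71 (WBGene00000647), chrII:3502709-3502930, had rank 463 and signal 385, with rank 411 and signal 212 in replicate 1 and rank 531 and signal 174 in replicate 2. It lay 268 bp upstream of col-71 and 130 bp upstream of the divergent gene Y49F6B.2. The first summit was thus almost midway between the starts of both genes, and the second was clearly nearer to the neighbour.

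The peak of col-2 (WBGene00000593), chrIV:10085797-10085967, had rank 1060 and signal 230.2, with rank 1008 and signal 123 in replicate 1 and rank 1072 and signal 111 in replicate 2. Its summit was 418 bp upstream of col-2 and 268 bp upstream of ndc-80, which encodes a kinetochore protein. The peak of col-8 (WBGene00000597), chrIII:7021294-7021669, had rank 1757 and signal 152, with rank 1632 and signal 83.4 in replicate 1 and rank 1828 and signal 72.2 in replicate 2. Its summit was 882 bp upstream of col-8 but 403 bp upstream of 1 start and 276 bp downstream of another start of rfl-1, in an intron of that gene, which encodes a subunit of the enzyme that activates the ubiquitin-like protein NEDD8. These ranks differed little between replicates, and the neighbour's start was again the nearer.

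Of the 3 peaks at which the col gene had the nearest protein-coding start, 2 are shown here because of what lay at their summits. The first sequence ends at the last base before the col-10 start, and its capitals mark the word TATAAA. In the second, the 72 capitals mark an annotated tRNA gene.
col-10: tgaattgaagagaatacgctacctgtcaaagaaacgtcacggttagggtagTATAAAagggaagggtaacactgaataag
col-185: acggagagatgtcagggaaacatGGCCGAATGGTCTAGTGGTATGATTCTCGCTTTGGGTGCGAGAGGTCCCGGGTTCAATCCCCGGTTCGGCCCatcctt
The peak of col-10 (WBGene00000599), chrV:9165149-9165524, had rank 2840 and signal 94.4, with rank 3128 and signal 44.7 in replicate 1 and rank 2023 and signal 66.1 in replicate 2. Its summit lay 30 bp upstream of the col-10 start, the closest of the 7, with summits of the replicates 70 bp apart, and no other gene's window held it. The peak of col-185 (WBGene00000758), chrX:13511826-13512201, had rank 3024 and signal 88.8, the weakest of the 7. It stood at rank 5415 with signal 25.6 in replicate 1, outside the 3641 strongest regions there, and at rank 2028 with signal 66.0 in replicate 2. Its summit lay 917 bp upstream of col-185 and inside the tRNA gene WBGene00014413 and the non-coding RNA gene H06A10.3. It is the one of the 7 nearest to the threshold, and it does not pass when the strongest regions of replicate 1 are taken alone.

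**Figure D3:**
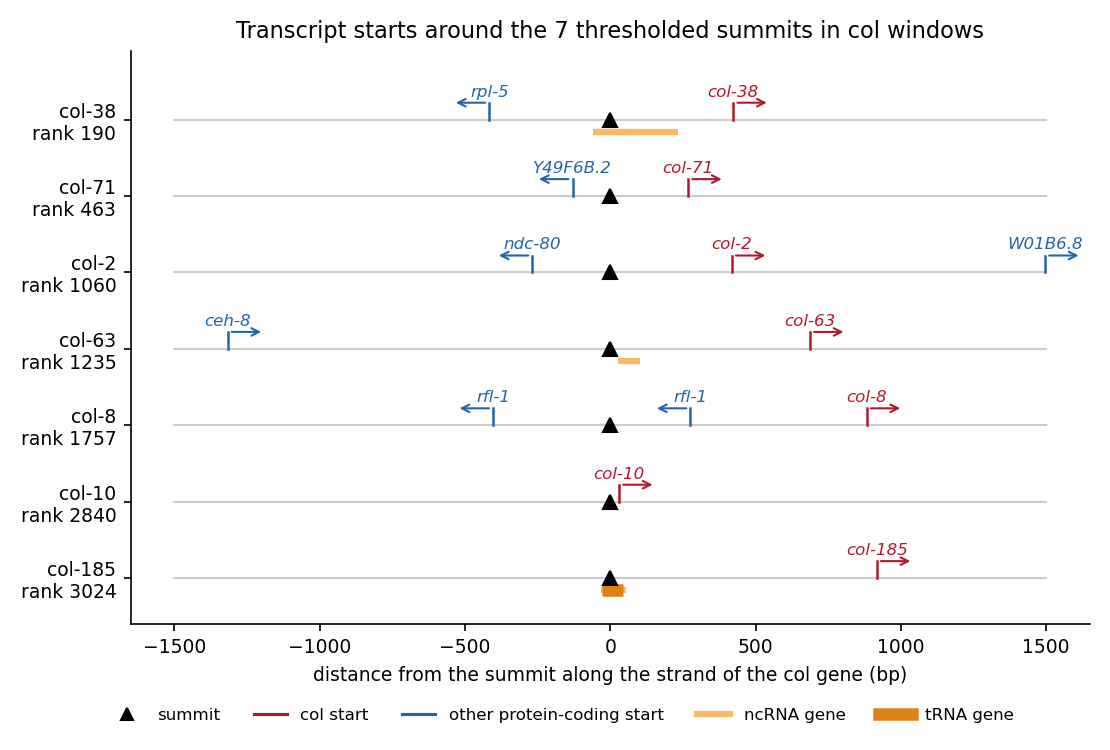
Transcript starts of col genes (red) and other protein-coding genes (blue), with arrows in the direction of transcription, and non-coding genes (orange bars), against distance from the summit in bp along the strand of the col gene (x axis) for the 7 thresholded peaks (rows). A blue start lies closer to the summit than the red one at col-38, col-71, col-2 and col-8, and the summit of col-185 lies in a tRNA gene.

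The remaining exception, col-63 (WBGene00000639), had no other protein-coding gene whose window held the summit. Its peak, at I:8245567-8245736, had rank 1235 and signal 208, with rank 1280 and signal 103 in replicate 1 and rank 1169 and signal 104 in replicate 2. The summit lay 687 bp upstream of col-63, and the nearest other protein-coding start, of the homeobox gene ceh-8, was 1317 bp away. The non-coding RNA gene ZK265.11 overlapped 56 bp of the region without reaching the summit. The summit itself lay in the annotated 3′ UTR of ceh-8, whose last exon ends upstream of col-63 on the same strand. Of the 7 promoter-window summits, that of col-10 was the one nearest to its col gene and outside every other annotated gene.

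**Figure D4:**
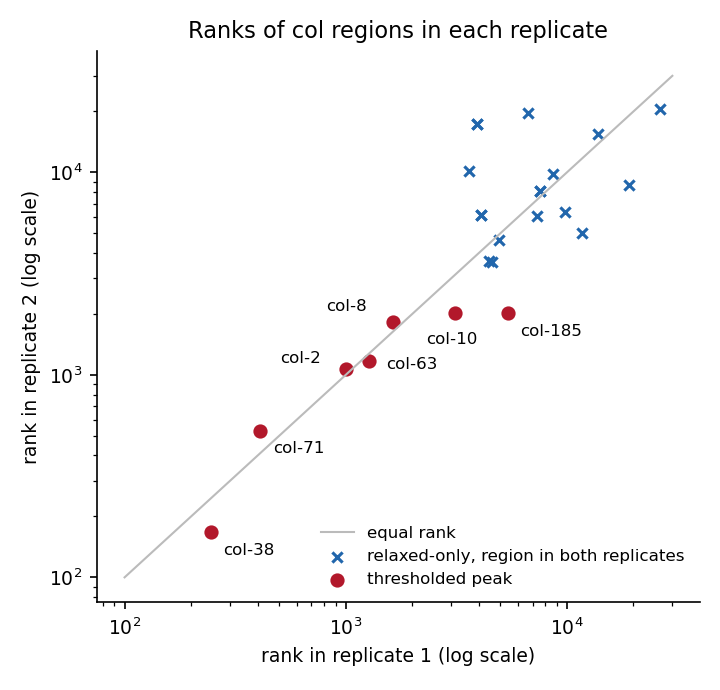
Rank in replicate 2 (y axis, log scale) against rank in replicate 1 (x axis, log scale) for the 7 thresholded peaks in col windows (red circles) and for the 18 relaxed-only regions that overlapped a region in both replicates (blue crosses, some of which share a replicate region and coincide). The points of col-2, col-63 and col-8 lie close to the line of equal rank, while col-185 is at rank 5415 in replicate 1 and rank 2028 in replicate 2.

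Below the threshold, 34 more col genes had a pooled summit, in 38 listed regions. These were not all separate, since col-107, col-42, col-98 and col-147 each had a pair of overlapping regions. Such a pair can overlap the same replicate region, so the counts below are of listed regions and not of independent sites. Their signal ran from 16.1 to 71.4 with a median of 21.8, beside a median of 24.1 for the 7224 relaxed-only regions in any promoter window. The median rank was 15990, beside 13521 for those regions. A q-value above 0.1 stood against 28 of the 38 regions (73.7%), beside 71.3% of the 7224. A region in both replicates overlapped 18 of the 38 (47.4%), beside 59.2% of the 7224, while 8 overlapped one in replicate 1 only and 12 one in replicate 2 only. Their summits ran from 972 bp upstream to 130 bp downstream of a col start, and 18 lay within 250 bp of one.

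A col gene whose window held the summit had the nearest start at 33 of the 38 relaxed-only regions (86.8%), and in 7 another gene's window also held the summit. Counted by gene, 27 of the 34 col genes (79.4%) had the nearest start to a relaxed-only summit, beside 89.2% (4529 of 5076) of all genes of that kind. The lower share was thus on the side of the col genes here too, and the difference was not tested. The 5 nearer neighbours were C15A11.7 at col-62, F41F3.1 at col-139, gsto-1 at col-90, T15B7.14 at col-143 and another collagen gene, col-9, at col-44. The count by gene also holds col-159 and col-117 as not nearest, since each shared its region with a nearer col gene, col-160 and col-3. The strongest of the 38 regions belonged to col-89, at chrIII:4747943-4748318, with rank 3731 and signal 71.4. It stood at rank 4569 in replicate 1 and rank 3591 in replicate 2, and its summit was 4 bp downstream of the col-89 start and inside the non-coding RNA gene F17C8.11. The next was col-166 at rank 4019 with signal 65.3, with ranks 4444 and 3651 in replicates 1 and 2 and a summit 192 bp upstream. In replicate 2 the region of col-89 was among the 3641 strongest and that of col-166 just outside them. In replicate 1 both stood farther outside.

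Several of the next strongest relaxed-only regions were uneven between replicates. The region of col-107 at rank 4555 (signal 56.8) had ranks 4102 and 6187 in replicates 1 and 2. The adjacent genes col-159 and col-160 shared 1 region at rank 4836 (signal 53.3), which had ranks 4943 and 4618. The strongest of the regions of col-42, at rank 5446 (signal 47.7), had ranks 3942 and 17360, and that of col-103, at rank 5479 (signal 47.3), had ranks 3612 and 10154. These last ranked higher in replicate 1. The regions of col-62 at rank 5968 (signal 43.6) and col-157 at rank 6355 (signal 41.4) ranked higher in replicate 2, at 6125 against 7361 and at 5026 against 11683. The region of col-129 at rank 7244 (signal 36.9) had ranks 6685 and 19737.

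Counted by gene, 63 col genes (40.4%) had a summit in at least 1 relaxed list, beside 55.0% of all genes, and 93 (59.6%) had none in any list. A summit in all 3 relaxed lists was found for 26 col genes (16.7%), beside 31.4% of all genes, and 19 of these 26 had no thresholded peak. Among the 19 were col-166, col-89, col-107, col-159, col-160, col-42, col-62, col-103, col-157 and col-129. Of the col genes with a summit in either replicate's list, 28 of 63 (44.4%) had one in both, 18 in replicate 1 only and 17 in replicate 2 only, while of all genes 6561 of 10774 (60.9%) had one in both. The share found in both replicates was lower for col genes, and the difference was not tested.

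The gene layout around the col genes differed from that of genes at large in features by which the share also differed among all genes. Whether they contribute to the col counts was not tested. A single transcript start was annotated for 136 col genes, of which 7 (5.15%) had a thresholded summit, beside 12.8% of all such genes. None of the 20 col genes with more than 1 start had one, which allows a share of up to 15%, beside 23% of all such genes. The start of another gene lay in the window of 27 col genes (17.3%) and of 22.8% of all genes. Of those 27, 4 (14.8%) had a thresholded summit, beside 34.1% of all genes of that kind. Of the other 129, 3 (2.33%) had one, beside 9.97%. The col share was lower in each of these classes. With a neighbour in the window it was 14.8%, near the 15.5% of all genes whatever their layout but below the 34.1% of all genes with such a neighbour.

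Distances to the nearest summit need no window. The median distance from a col start to the nearest thresholded summit was 12138 bp (quartiles 4689 and 22826), beside 10093 bp (quartiles 2781 and 25222) for all genes. A summit lay within 1000 bp for 9 col genes (5.77%), beside 16.3% of all genes, while 56.4% and 50.2% had none within 10000 bp. The farthest was col-135, at 92058 bp. Col genes were thus the farther at the median and the nearer at the upper quartile. Of the 50 col genes within 5000 bp of another col gene, 13 (26%) had a pooled summit. The same held for 28 of the 106 others (26.4%) and for 40.9% of all genes. A thresholded summit was present at 1 of the 50 and 6 of the 106, beside 15.5% of all genes, counts too small to compare the classes.

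By chromosome, the highest thresholded shares of col genes were on chromosomes II (2 of 24) and III (1 of 12), both 8.33%, beside 14.3% and 23.3% of all genes there. The lowest was on chromosome IV, with 1 of 41 (2.44%), beside 15.3%. All 6 chromosomes had a lower thresholded share for col genes than for all genes. In the pooled relaxed list chromosome V went the other way, with 12 of 31 col genes (38.7%) beside 31.4% of all genes there. Chromosome I had the lowest pooled share of col genes, 2 of 21 (9.52%), beside 48.1%.

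A list of genes for collagen folding, processing, cross-linking and export had a share above that of all genes. The list was chosen with earlier results of these data known, so its share is a description only. Of its 22 genes, 8 (36.4%) had a thresholded promoter summit and 13 (59.1%) a pooled one, beside 15.5% and 40.9% of all genes. The disulfide isomerase genes pdi-3 and pdi-2 had ranks 2 and 6, in each replicate as in the pooled list, with the pdi-3 summit shared with the nearer gene ubql-1. The isomerase gene pdi-1 had rank 88, with ranks 91 and 86 in replicates 1 and 2, and shared its summit with C14B1.2. The prolyl 4-hydroxylase subunit gene dpy-18 had rank 638 (667 and 614), and tmem-131, whose product helps to recruit procollagen for export, had rank 837 (903 and 718) and shared its summit with smcr-8. The others were tfg-1 at rank 2605 (3063 and 2231), which shared its summit with tdpt-1, and the thioredoxin-like gene dpy-11 at rank 2863 (3371 and 2864). The COPII coat gene sec-23 had rank 2994 and shared its summit with the nearer gene dcs-1, with rank 3677 in replicate 1, outside the 3641 strongest regions there, and rank 2865 in replicate 2. In all, 5 of these 8 summits also lay in the window of another gene, which was the nearer one for pdi-3 and sec-23. Members without one included the hydroxylase gene phy-2, the subtilisin-like protease gene bli-4, the astacin protease gene dpy-31 and the dual oxidase gene bli-3. The list also held tln-1, the talin gene, which has no role in collagen processing and had no summit.

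Cuticle collagen genes with other names resembled the col genes in their counts. Of 20 such genes 1 (5.00%, beside 15.5% of all genes), bli-6, had a thresholded summit, at rank 933 with ranks 1063 and 861 in replicates 1 and 2. That summit was 347 bp upstream of bli-6 and nearer to hrpf-2. A pooled summit was present for 5 of the 20 (25%, beside 40.9% of all genes), and none for example for rol-6, sqt-1, sqt-3 and dpy-7. Of the 3 basement membrane collagen genes none had a thresholded summit, let-2 and cle-1 had pooled ones at ranks 6424 and 21992, and emb-9 had neither. Among 11 regulators of epidermal genes and moulting, 1 (9.09%, beside 15.5% of all genes), the nuclear receptor gene nhr-85, had a thresholded summit, at rank 3105 with ranks 2436 and 3774. A pooled summit was present for 8 (72.7%, beside 40.9% of all genes), so this group lay below the general share in one list and above it in the other. Those without a thresholded summit included nhr-23, nhr-25, elt-1 and blmp-1.

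**Figure D5:**
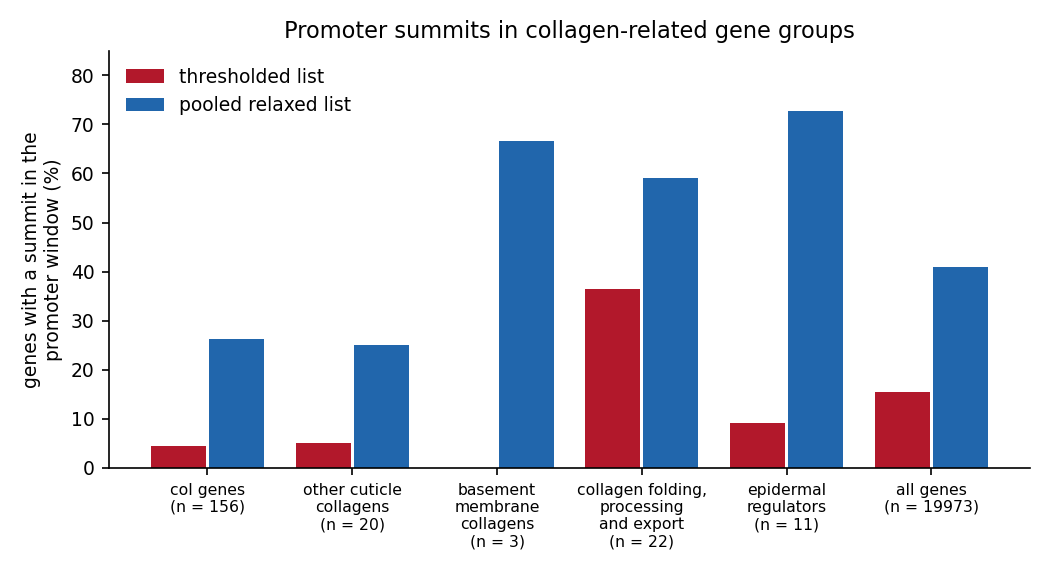
Percentage of genes with a summit in the promoter window (y axis) in the thresholded (red) and pooled relaxed (blue) lists for col genes, 4 related gene groups and all genes (x axis, with the number of genes). Col genes (4.49%) and other cuticle collagens (5.00%) have low red bars, genes for collagen folding, processing and export have the highest (36.4%), and the basement membrane group is at 0 of 3.

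The DNA of the col promoters was searched for 8 words from 250 bases before to 50 after the gene start, on both strands. Of these, TGACGTG is the core of the element bound by XBP-1 in the unfolded protein response, CCACGT is part of the ER stress element, CACGTG is the E-box and TGACGTCA is the cyclic AMP response element. TATAAA is the TATA box, GATAA is the word of GATA factors, AGGTCA that of nuclear receptors and GAGAGAGA that of GAGA repeats. The core TGACGTG was present in 3 col promoters (1.92%), those of col-83, col-98 and col-175, beside 2.92% of all promoters. None of the 3 had a thresholded summit, beside 15.5% of all genes. Of these, col-83 and col-175 also lacked a pooled summit, which 40.9% of all genes had. By contrast, col-98 had one at rank 8209 and a summit in all 3 relaxed lists. With 3 genes these counts are too small to be set against the general shares. The one printed here is from col-175, the only gene of the 3 with the core wholly upstream of its start. It shows chrX:9234727-9234763, minus strand, 5′ to 3′ along the gene, with the core in capitals as its reverse complement, 130 bp upstream of the start.
col-175: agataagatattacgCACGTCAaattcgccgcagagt
CCACGT was present in 3.21% of col promoters beside 8.91% of all, CACGTG in 1.28% beside 5.83% and TGACGTCA in 0.641% beside 1.51%. The words that contain ACGT can overlap each other in the same stretch, and a match is a description of the letters only. TATAAA was present in 66.0% of col promoters beside 38% of all, AGGTCA in 13.5% beside 8.23%, GAGAGAGA in 6.41% beside 3.54% and GATAA in 62.2% beside 57.6%. In these short windows the share with TATAAA was thus higher in col promoters and the shares with the words that contain ACGT were lower, although the value of TGACGTCA rests on 1 col gene, col-165. The windows of 1000 bp before to 200 bp after every start of a gene were also searched. Genes with more starts were thus searched over more sequence, and col genes had 1.15 starts on average beside 1.47 for all genes. In these windows TATAAA was present at 89.1% of col genes beside 82.6% of all, CCACGT at 22.4% beside 32.7% and CACGTG at 12.8% beside 21.4%. AGGTCA was present at 36.5% beside 30.5%, GAGAGAGA at 12.2% beside 10.4% and GATAA at 96.8% beside 96%. TGACGTCA was there at 7.05% of col genes beside 7.21% of all, so its gap was nearly gone. At the 7 summits of col peaks TGACGTG was found in none within 50 bases, which allows a share of up to 42.9%, beside 3.43% of all 3641 summits. TATAAA was found at 1 of the 7, that of col-10, beside 4.56% of all summits.

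Base composition and repetition were also measured in the same windows. The median G+C content was 38% in col promoters, 34.3% in all promoters and 35.3% in those of genes with a thresholded summit. In all of these sets the median share of 31-base words that occur once in the genome was 100%. Under 90% of such words were unique in the wider windows of 18 col genes (11.5%), of 14.6% of all genes and of 7.60% of those with a thresholded summit. The part of composition and repeats in the counts was not tested.

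The count of col genes with a thresholded summit ranged from 3 to 8 with the way summits were assigned and the regions kept. Windows from 500 bp upstream kept 4 col genes (col-2, col-10, col-38 and col-71), or 2.56%, beside 12.8% of all genes. Windows from 2000 bp upstream gave 8, or 5.13%, beside 19.3%, and added col-94, whose summit at rank 178 lay 1775 bp upstream. Assigning each summit only to the nearest start kept 3 (col-10, col-63 and col-185), or 1.92%, beside 11.3%. Counting any overlap of the region with the window gave 7, or 4.49%, beside 16.3%. Peaks with a signal above the list's median kept 5 (col-2, col-8, col-38, col-63 and col-71), or 3.21%, beside 9.28%. The 3641 strongest regions of replicate 2 alone gave 8, or 5.13%, beside 15.2%, with col-89 added to the 7. Those of replicate 1 alone gave 7, or 4.49%, beside 15.4%, with col-103 in place of col-185 and the other 6 shared.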

How the data were processed

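Peak lists of 2 biological replicates were analysed on ce11, the same assembly as WBcel235, whose chromosome lengths contained every region; lists on the other build were not used. Per the deposited file lists, relaxed regions came from replicate 1, replicate 2 and both pooled, each with 1 further file not used here, and the IDR-thresholded list was derived from these. The sources used here name neither aligner nor peak caller. The deposited signal value was used to rank regions, and the authors' -log10 q-value only for 1 count. Depth per sample is unknown.

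Summits were assigned to windows 1000 bp upstream to 200 bp downstream of each protein-coding transcript start (Ensembl release 115). Overlap meant at least 1 bp. Intervals are Wilson, while a count of 0 is limited by 3 counts. That limit is a rough rule, not a Wilson interval, and is only approximate for sets as small as those here. The assignment was tested on simulated data. Python 3.11.15, pandas 2.3.3, NumPy 2.4.6, SciPy 1.17.1 and matplotlib 3.10.9 were used. Alternatives were other windows, the nearest start, region overlap, stronger regions and each replicate alone.

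Members and lists were chosen with earlier results of these data known. Named are every col gene with a thresholded summit and its neighbours, the 10 strongest with relaxed regions only, up to 10 present in all relaxed lists, and from other lists every member with a peak and up to 4 without. The names ram-4 and txdc-12 had no match in the annotation. Genes in results on motifs, gene bodies or other windows were named after their values were seen.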

Additional observations from a re-analysis of the deposited data

How the results depend on the processing

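The share of col genes lay below that of all genes in 28 of 28 alternatives. The thresholded count of 7 fell to 4 with windows from 500 bp upstream and to 3 with the nearest start. Keeping only regions above the list's median signal lowered the pooled count from 41 to 24, that of replicate 1 from 46 to 29 and that of replicate 2 from 45 to 28. In replicate 2 windows from 500 and 2000 bp upstream gave 29 and 68. TGACGTG was present in 12 col genes (7.69%, beside 11.4% of all) in the wider windows of 1000 bp upstream to 200 bp downstream, in place of 3. With either replicate left out, the thresholded count was 7 to 8 and the pooled count 37 to 41. Ranks then ran from 167 to 245 for col-38, 411 to 531 for col-71, 1008 to 1072 for col-2, 1169 to 1280 for col-63, 1632 to 1828 for col-8, 2023 to 3128 for col-10 and 2028 to 5415 for col-185. Adding starts of non-coding transcripts, an alternative chosen after seeing the data, left 7 col genes and 3095 of all genes. The cause of each change was not tested beyond what the setting itself removes. No paired analysis was possible because there is 1 group. Without read totals, a missing region says only that none was listed.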

Other observations

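A pair of thresholded peaks lay just inside col genes, beyond the downstream edge of the promoter window. The peak in col-72, chrII:3523665-3523839, had rank 1120 and signal 221, with its summit 453 bp downstream of the start and ranks 929 and 1337 in replicates 1 and 2. The peak in col-85, chrII:12494692-12494787, had rank 1465 and signal 177, with its summit 372 bp downstream of the start and ranks 1298 and 1714. With col-99, 3 col genes (1.92%) held a thresholded summit within the gene, beside 3.99% of all genes. The median col gene is 1220 bp long, and the median of all genes is 2027 bp.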
